A study of Callithrix jacchus with 71 samples.

Results

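The POU3F and NR2F genes encode 2 families of transcription factors that were followed here cell by cell in induced neural stem cell-like cells (iNSLCs) of the common marmoset. The members are POU3F1, POU3F2, POU3F3, POU3F4, NR2F1, NR2F2 and NR2F6, and 7 of 7 have a row among the 23561 named genes of the deposited table. The members were selected on their normalized counts in these iNSLCs, ESCs and iPSC, from earlier results of the same data, so the levels that follow are a description and no test was made on them.

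POU3F proteins are POU-domain factors of class III that bind octamer-like DNA, often together with SOX proteins. In the mouse, POU3F2 (BRN2) and POU3F3 (BRN1) act in neural progenitors and in upper-layer cortical neurons, POU3F4 (BRN4) acts in the inner ear and in parts of the forebrain and neural tube, and POU3F1 (OCT6) acts in early neural commitment and in Schwann cells. NR2F proteins are orphan nuclear receptors that mostly repress transcription. NR2F1 (COUP-TFI) and NR2F2 (COUP-TFII) pattern the neural tube and cortex, NR2F2 also acts in mesenchyme and veins, and NR2F6 (EAR2) is expressed in many tissues.

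Single-cell RamDA-seq, which copies total RNA of a sorted cell along the length of its transcripts, gave values for 65 cells of the iNSLC line E01F A-2, sampled at passage 1. The comparison cells were 1 iPSC of the line E01F A-2-2, 4 ESCs of the line no. 40 and a single E01F fibroblast. The fibroblasts came from the dorsal skin of an embryonic marmoset. The iNSLCs were derived from them with the EP-A episomal vectors, which carry human reprogramming factors (LIN28, L-MYC, KLF4, SOX2 and OCT4), a dominant-negative form of mouse p53 and EGFP, and they still held the vectors, while the iPSC is of a line converted from the same iNSLCs to the primed state. The iPSC and the 4 ESCs form the group of 5 pluripotent (PSC) cells. The labels give 1 source per group and each was treated as 1 culture, so cells are not replicates and the SDs and correlations describe spread among cells of 1 culture. Values are the authors' normalized counts, and folds are ratios of mean values unless said otherwise.

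The iNSLCs held 82268 to 695241 reads (median 268128), the ESCs 134328 to 1003718, the iPSC 302617 and the fibroblast 1294430. A single read was worth 0.441 to 2.84 normalized counts in iNSLCs, 0.405 to 2.55 in PSC cells and 0.405 in the fibroblast. ESC 11 had 7126 detected genes, against 15122 to 15521 in the other ESCs. Of the neural stem cell markers, 12 of 13 had a read in at least 50% of iNSLCs, beside 10509 of the 23561 named genes. All 11 of 11 pluripotency markers with a row were at least 4-fold lower in iNSLCs than in PSC cells. Of the 16269 genes compared between these groups, 10.2% were lower by that much. Both lists were chosen with earlier results of these data known, so their counts are a description. The iNSLCs numbered 57 or above (38 cells, median 208746 reads) and 56 or below (27 cells, median 357910 reads) differ in their profiles. This boundary was set by eye in an earlier analysis, and the labels name no library or plate for it. Values are given in both sets for many results, and a value given only for all iNSLCs may still differ between the sets.

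POU3F2 and NR2F1 were the members found in 65 of 65 iNSLCs, and both were above every PSC cell in every iNSLC. With POU3F3, POU3F4 and NR2F2 they make 5 of 7 members with a log2 ratio of at least 2 (4-fold) for iNSLCs over PSC cells after a pseudocount of 1, and 0 of 7 were lower by that much. NR2F6 was lower in iNSLCs by less than that limit, and POU3F1 was found in a minority of iNSLCs. All 7 had a mean of at least 1 in one of the groups. Where 0 cells had a read, 3 cells of the total set the upper limit, which is a share of 4.62% for 65 iNSLCs and 60% for 5 PSC cells, so a member without a read in PSC cells may still be found in some of them. Over the 16269 genes with such a mean, 4.6% were at least 4-fold higher in iNSLCs and 10.2% at least 4-fold lower, and the median log2 ratio was -0.37. Since the members were chosen for these levels, nothing is read from the difference between their count and that background.

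**Figure D1:**
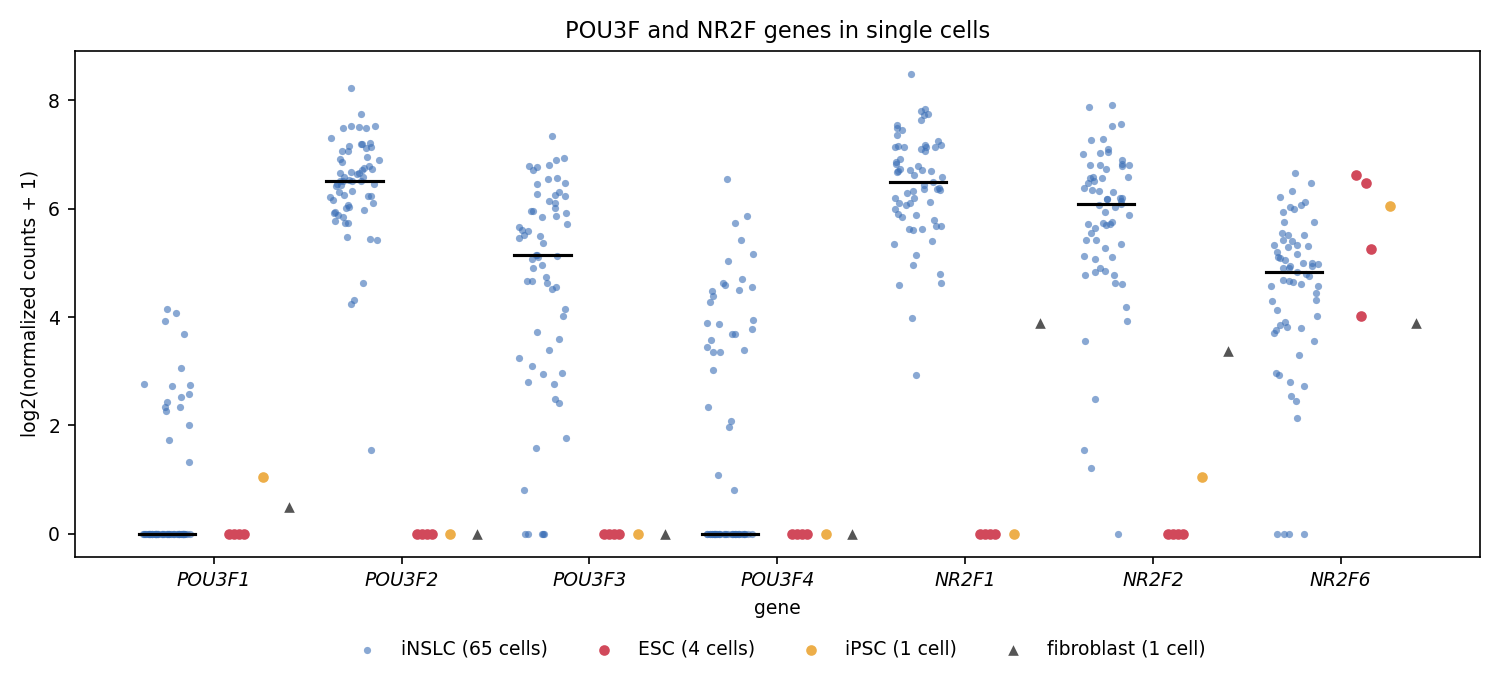
Levels of the 7 genes in single cells, as log2 of normalized counts after a pseudocount of 1 (y axis), by gene (x axis) and, within each gene, iNSLCs, ESCs, the iPSC and the fibroblast from left to right. Each point is a cell and the black bar is the median of the 65 iNSLCs. POU3F2 and NR2F1 lie above 0 in all 65 iNSLCs and at 0 in the 5 PSC cells, POU3F1 and POU3F4 have a median of 0 in iNSLCs, and for NR2F6 the 5 PSC cells, from 15.3 to 97.6 normalized counts, lie within the range of the iNSLCs.

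Among the POU3F genes, POU3F2 was the most evenly distributed. Its lowest, median and highest values were 1.94, 90.4 and 299 normalized counts in iNSLCs, and 0 was found in each of the 4 ESCs, in the iPSC and in the fibroblast. The iNSLCs averaged 98.9 ± 51.3 (SD, 65 cells), which is at least 153-fold higher than the PSC cells when 3 reads over the group are taken as the floor, and at least 81.4-fold higher than the fibroblast. Both sets of iNSLCs were alike in mean, with 99.4 ± 52.8 in the cells numbered 57 or above and 98.2 ± 50.1 in those numbered 56 or below. As a ratio of means this was 1.01, the closest to 1 of the 7 members.

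A single iNSLC stood far below the rest for POU3F2. Cell 47 had 1.94 normalized counts, and the next lowest, cell 83, had 18.02. Cell 47 was also the most deeply read iNSLC, with 695241 reads and 11368 detected genes, so the low value was not found in a shallow cell. It had no read of POU3F1, POU3F3 or POU3F4, while NR2F1 was at 23.3, NR2F2 at 106 and NR2F6 at 13.1. Cell 47 was thus below the iNSLC median for POU3F2, POU3F3, NR2F1 and NR2F6 and above it for NR2F2. At the other end, cell 60 had 299 for POU3F2 with 86.5 for POU3F3, 42.1 for POU3F4 and 4.43 for POU3F1.

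POU3F3 was found in 60 of 65 iNSLCs (92.3%, exact Clopper-Pearson 95% interval 83.0% to 97.5%). Its lowest, median and highest values were 0, 34.4 and 161 in iNSLCs, against 0 in all 5 PSC cells and 0 in the fibroblast. The iNSLCs averaged 43.9 ± 37.9, at least 67.8-fold above the PSC cells and at least 36.2-fold higher than in the fibroblast. The 5 iNSLCs without a read were cells 36, 38, 45, 47 and 76. They held 213460 to 695241 reads, against a median of 268128 over iNSLCs. Cell 36, with 8445 detected genes, was among the 10% of iNSLCs with the fewest genes. POU3F4 was also without a read in each of them, whereas POU3F2 was at 94.6, 185, 100.5, 1.94 and 56.6.

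The cells numbered 57 or above averaged 56.5 ± 39.7 normalized counts of POU3F3, against 26.2 ± 27.1 in those numbered 56 or below, a ratio of 2.16. Their medians were 55.8 and 22.5, and the 2 sets overlapped widely, with a highest value of 161 in the cells numbered 57 or above and 118 in those numbered 56 or below. With every cell thinned to 100000 reads, the means were 18.5 reads in 36 cells numbered 57 or above and 9.46 reads in 26 cells numbered 56 or below.

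POU3F4 was found in 31 of 65 iNSLCs (47.7%, interval 35.1% to 60.5%). Its lowest and median values were 0 and its highest, in cell 88, was 93.2, against 0 in all 5 PSC cells and 0 in the fibroblast. The mean of 9.75 ± 16.8 was at least 15.05-fold above that of the PSC cells and at least 8.03-fold higher than in the fibroblast. The 6 highest iNSLCs held 49.1% of its summed level, compared with 19.3% for POU3F2. The log2 ratio of 3.43 over PSC cells was 0.98 with a pseudocount of 10, and 0 with medians in place of means, since 34 of 65 iNSLCs had no read.

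POU3F4 averaged 12.99 ± 20.3 in the cells numbered 57 or above and 5.19 ± 8.30 in those numbered 56 or below, a ratio of 2.50, and it was found in 20 of the 38 and 11 of the 27. After thinning to 100000 reads the means were 3.83 and 2.23 reads. Cells with and without a POU3F4 read had median depths of 271194 and 242321 reads. Thinning left the share of iNSLCs with a POU3F4 read at 45.2%, close to the 47.7% found with all reads.

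POU3F1 was the rarest member. A read was found in 17 of 65 iNSLCs (26.2%, interval 16.0% to 38.5%), with a highest value of 16.6 in cell 25 and 15.9 in cell 81, against 0 in each of the 4 ESCs, 1.07 in the iPSC and 0.405 in the fibroblast. The last 2 values are 1 read each. The iNSLC mean of 1.79 ± 3.85 was 8.36-fold higher than the PSC mean, with a counting interval of 1.5 to 330.2, and 61.8% of the summed level came from 6 cells. After a pseudocount of 1 the log2 ratio was 1.20. The share with a read was 26.3% in the cells numbered 57 or above and 25.9% in those numbered 56 or below. Cells with a POU3F1 read had fewer reads than those without (median 213460 and 272907).

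Among the NR2F genes, NR2F1 was found in every iNSLC. Its lowest, median and highest values were 6.66, 89.7 and 359 normalized counts in iNSLCs, against 0 in each of the 5 PSC cells and 13.8 (34 reads) in the fibroblast. The mean of 103 ± 62.9 was at least 158-fold above that of the PSC cells, and 7.45-fold higher than in the fibroblast (counting interval 5.33 to 10.8). Of the 65 iNSLCs, 64 were above the fibroblast, and the exception was cell 25, which had the highest POU3F1 value.

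NR2F1 averaged 123 ± 70.4 in the cells numbered 57 or above and 74.0 ± 35.4 in those numbered 56 or below, a ratio of 1.66. The highest value was 359 in the cells numbered 57 or above, in cell 66, and 142 in those numbered 56 or below, in cell 41. The quartiles were 74.0 and 159.8 in the cells numbered 57 or above and 52.1 and 95.3 in those numbered 56 or below, so the sets overlapped but their centres lay apart.

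NR2F2 was found in 64 of 65 iNSLCs (98.5%). Its lowest, median and highest values were 0, 66.9 and 240 in iNSLCs, against 0 in each of the 4 ESCs, 1.07 (1 read) in the iPSC and 9.31 (23 reads) in the fibroblast. The mean of 74.8 ± 52.8 was 350.0-fold higher than the PSC mean, a ratio whose counting interval of 62.8 to 13825 is wide because it rests on that 1 read, and 8.04-fold higher than the fibroblast (interval 5.36 to 12.7). The cell without a read was cell 36. Low values were also found in cell 78 (1.32) and cell 27 (1.93), and cell 27 had the second highest POU3F2 value, 214. NR2F2 averaged 91.6 ± 57.3 in the cells numbered 57 or above and 51.2 ± 34.6 in those numbered 56 or below, a ratio of 1.79.

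NR2F6 went the other way. Its lowest, median and highest values were 0, 27.7 and 99.97 in iNSLCs, against 97.6, 15.3, 88.5 and 37.5 in ESCs 10, 11, 12 and 14, 65.2 in the iPSC and 13.8 (34 reads) in the fibroblast. The groups overlapped, since 45 of 65 iNSLCs were above the lowest PSC cell, 8 were above the PSC mean and 1, cell 68, was above the highest PSC cell. The mean was 30.3 ± 22.5 in iNSLCs and 60.8 ± 34.5 in the 5 PSC cells, a log2 ratio of -0.98. Leaving out ESC 11, the ESC with few detected genes and the lowest NR2F6 value, gave -1.22, and scaling every cell to the median total gave -0.69. NR2F6 averaged 36.2 ± 24.8 in the cells numbered 57 or above and 22.1 ± 15.9 in those numbered 56 or below. The log2 ratios of these sets over PSC cells were -0.73 and -1.42. NR2F6 was found in 61 of 65 iNSLCs (93.8%, interval 85.0% to 98.3%), and the 4 without a read were cells 30, 40, 45 and 69. The name of the group as neural factors thus fits NR2F6 least, since it was found in all 5 PSC cells. Its level in the fibroblast does not set it apart, since NR2F1 also had 34 reads there and NR2F2 had 23.

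Over the fibroblast, 5 of 7 members were at least 4-fold higher in iNSLCs on the log2 scale and 0 of 7 lower, beside 9.99% of 15181 genes that were higher and 9.91% lower. The members not past that limit were POU3F1 and NR2F6, which was 2.20-fold higher (counting interval 1.58 to 3.18). The fibroblast had reads of 4 members (POU3F1, NR2F1, NR2F2 and NR2F6), which sets the NR2F genes apart from POU3F2, POU3F3 and POU3F4 in this cell. The fibroblast is 1 cell, so its values carry no spread.

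With all reads, all 7 members had a higher mean in the iNSLCs numbered 57 or above than in those numbered 56 or below, and 2 of 7, POU3F3 and POU3F4, were at least 2-fold higher there after a pseudocount of 1, beside 7.33% of 14389 genes. None (0 of 7) was lower by that much, beside 7.1% of genes. After thinning every cell to 100000 reads 6 of 7 had a higher mean in the cells numbered 57 or above, and POU3F2 averaged 32.1 reads in the cells numbered 57 or above and 34.3 in those numbered 56 or below. At that depth 0 of 7 were at least 2-fold higher after a pseudocount of 1, with ratios of the thinned means of 1.96 for POU3F3 and 1.72 for POU3F4. Here the pseudocount was added to thinned reads and not to normalized counts, so the limit is not the same. The share of all genes is not given at that depth, so nothing is read from these counts. Cells numbered 57 or above had fewer reads and more detected genes (medians of 11333.5 and 10061), and whether these differences have a part in the levels was not tested. The median log2 ratio over all genes between the sets was 0.03.

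**Figure D2:**
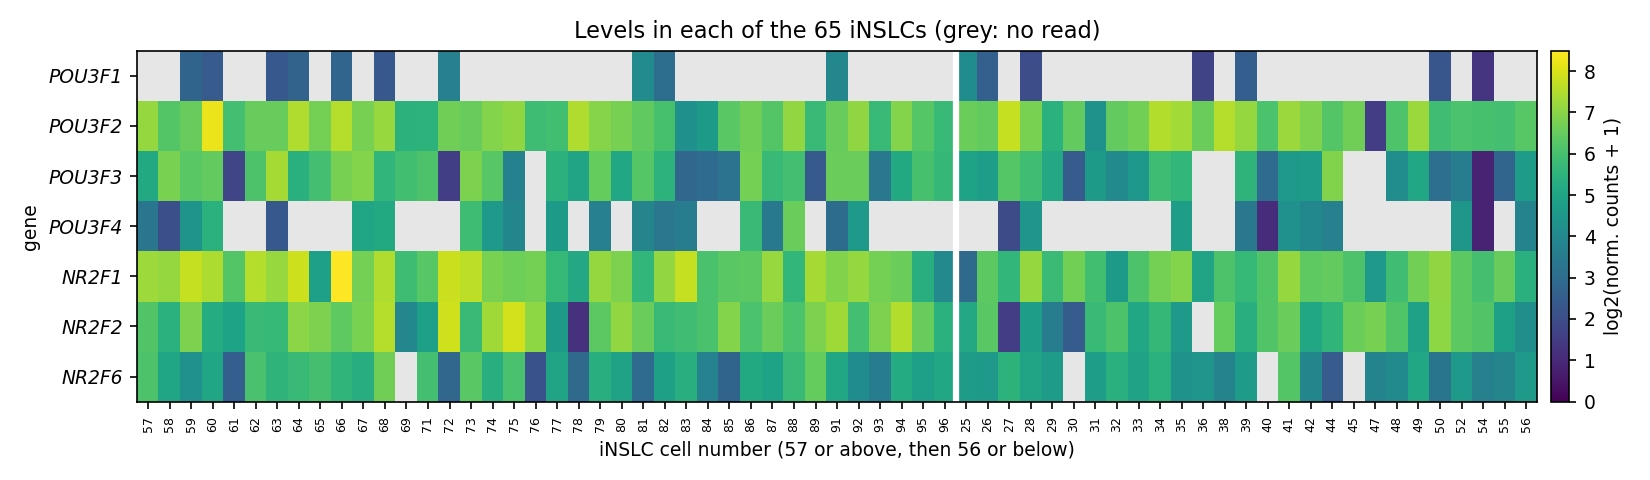
Levels of the 7 genes (rows) in each of the 65 iNSLCs (columns, by cell number), as log2 of normalized counts after a pseudocount of 1, with grey where no read was found and a white line between the 38 cells numbered 57 or above (left) and the 27 numbered 56 or below (right). POU3F2 and NR2F1 fill their rows, NR2F2 lacks a read in 1 cell, and POU3F1 and POU3F4 are grey in 48 and 34 cells.

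All 65 iNSLCs carried both families together, since POU3F2 and NR2F1 had a read in each of them. The number of members with a read was 3 to 7 per iNSLC with a median of 6, compared with 1 in each ESC, 3 in the iPSC and 4 in the fibroblast. The median was 6 in the cells numbered 57 or above and 5 in those numbered 56 or below. The most frequent combination lacked POU3F1 and POU3F4 and was found in 21 iNSLCs (32.3%), followed by all but POU3F1 in 20 (30.8%), all members in 10 (15.4%) and all but POU3F4 in 6. These 4 combinations share POU3F2, POU3F3, NR2F1, NR2F2 and NR2F6. Being found in every iNSLC, as POU3F2 and NR2F1 were, was shared by 10.1% of the 16269 genes, and having every iNSLC above every PSC cell by 0.209%. The reverse, every iNSLC below every PSC cell, was found for 0 of 7 members and 1.16% of genes.

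The 7 iNSLCs with at most 4 members were cells 30, 36, 38, 45, 47, 69 and 76. Cell 45 had 3, namely POU3F2 at 100.5, NR2F1 at 68.0 and NR2F2 at 94.6. Cell 36 had POU3F1 at 2.31, POU3F2 at 94.6, NR2F1 at 30.0 and NR2F6 at 20.8, and lacked the others. Cells 30 and 69 were shallow, with 95144 and 82268 reads, whereas the other 5 held 213460 reads or more. Cell 36 had few detected genes (8445). Thinning to 100000 reads, which 62 iNSLCs allowed, gave shares with a read of 98.4% for POU3F2, 100% for NR2F1, 96.8% for NR2F2, 96.8% for NR2F6 and 87.1% for POU3F3, so the order from common to rare members was nearly that found with all reads.

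All 31 iNSLCs with a POU3F4 read had a POU3F3 read, and 29 of the 34 without POU3F4 had one (85.3%). POU3F3 was found in 60 of 65 iNSLCs. POU3F2, NR2F1 and NR2F2 also had a read in all 31, and NR2F6 in 30 of them, so nothing is read from this overlap. The median of POU3F3 was 57.7 in cells with POU3F4 and 22.8 in cells without it, and that of NR2F1 was 116 and 75.2. NR2F2 showed no such gap, with medians of 66.4 in cells with POU3F4 and 70.2 in cells without it. Cells with a POU3F1 read had a median NR2F1 of 136, against 81.7 in cells without one.

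Co-variation was measured with Spearman's rho over the 65 iNSLCs for the 6 members with a read in at least 20 of them, which gives 15 pairs. These cells share a culture and differ in depth, so the values are descriptions. The median over the pairs was 0.29 and 14 of 15 were above 0, beside 57.5% of the values of members with all ranked genes. In the cells numbered 57 or above 13 of 15 were above 0 (51.6% over all ranked genes), in those numbered 56 or below 10 of 15 (54.5%), and with every cell scaled to the median total 12 of 15 (52.2%). The median of the members with all 10509 ranked genes (those found in at least 50% of iNSLCs) was 0.03 over the 65 cells, with 5th and 95th percentiles of -0.23 and 0.29. The highest was POU3F3 with POU3F4 at 0.50, followed by POU3F3 with NR2F6 at 0.46 and POU3F2 with NR2F6 at 0.37. The lowest was POU3F3 with NR2F2 at -0.08. POU3F3 with NR2F6 had 0.29 in the cells numbered 57 or above and 0.56 in those numbered 56 or below. POU3F2 with NR2F6 had 0.36 and 0.41 in these sets.

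The rho of POU3F3 and POU3F4 was 0.49 in the cells numbered 57 or above, 0.41 in those numbered 56 or below and 0.49 after thinning to 100000 reads. Among the ranked genes POU3F3 was number 5 in likeness to POU3F4. POU3F2 followed POU3F3 at 0.33 and POU3F4 at 0.29, with 0.31 and 0.33 in the cells numbered 57 or above and 0.38 and 0.25 in those numbered 56 or below. The 3 POU3F genes thus had a rho above 0 with each other in both sets. The 95th percentile over all ranked genes was 0.30 in the cells numbered 57 or above and 0.35 in those numbered 56 or below. POU3F2 with POU3F4 lay inside that range in the cells numbered 56 or below. POU3F2 with POU3F3 lay at its edge in those numbered 57 or above.

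The NR2F genes were less uniform. NR2F1 and NR2F2 had a rho of 0.34 over all iNSLCs, but 0.23 in the cells numbered 57 or above and 0.09 in those numbered 56 or below. NR2F1 and NR2F6 had 0.34, with 0.35 and -0.03 in these sets. NR2F2 and POU3F3 had a rho below 0 in both sets, at -0.23 in the cells numbered 57 or above and -0.41 in those numbered 56 or below. The 5th percentile over all ranked genes was -0.29 in the cells numbered 57 or above and -0.30 in those numbered 56 or below, so the first value lies inside that range and the second outside it. The pooled value of -0.08 lies nearer to 0, and the means of both genes are higher in the cells numbered 57 or above. NR2F2 and POU3F2 had 0.29 in the cells numbered 57 or above and -0.26 in those numbered 56 or below. NR2F2 was higher in cells with more detected genes (rho 0.39) and a higher normalized total (0.44), the values for NR2F1 were 0.28 and 0.35, and the values for POU3F2 were -0.17 and 0.02. Scaling every cell to the median total gave 0.48 for POU3F3 with POU3F4 and 0.26 for NR2F1 with NR2F2.

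**Figure D3:**
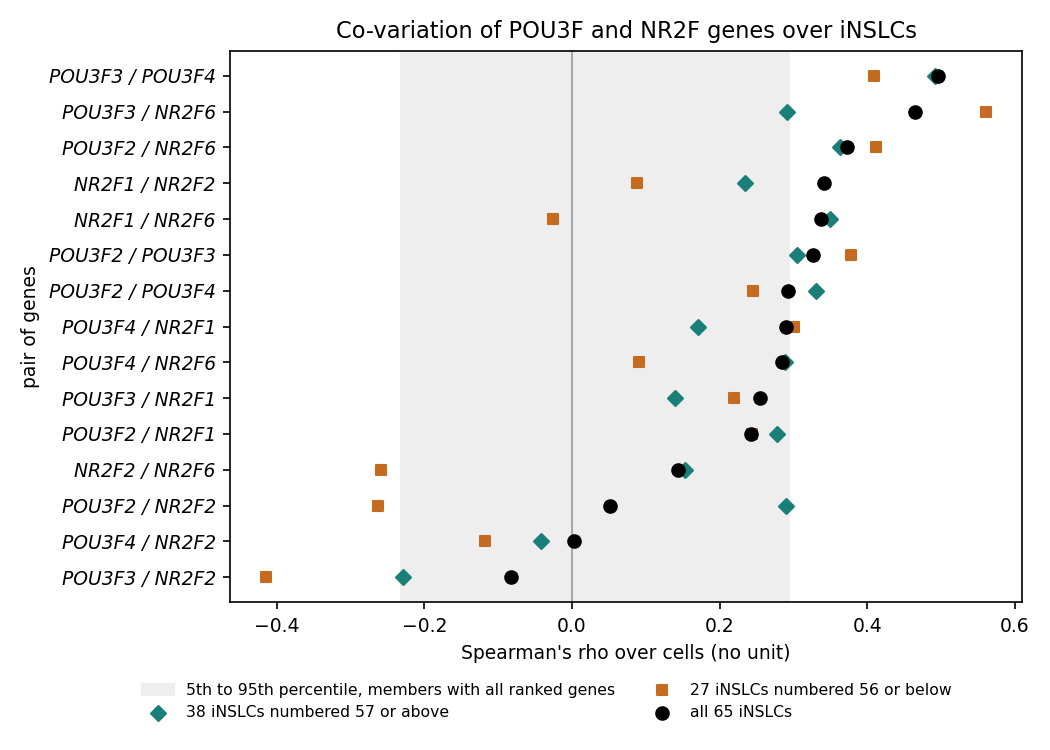
Spearman's rho (x axis, no unit) for each of the 15 pairs of members (y axis) over all 65 iNSLCs (black), the 38 numbered 57 or above (green diamonds) and the 27 numbered 56 or below (orange squares), with the 5th to 95th percentile of the members' rho with all ranked genes over the 65 cells shaded (the range is wider within the sets). POU3F3 with POU3F4 is highest at 0.50 and is similar in both sets, and POU3F3 with NR2F2 is lowest and below 0 in both sets.

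**Figure D4:**
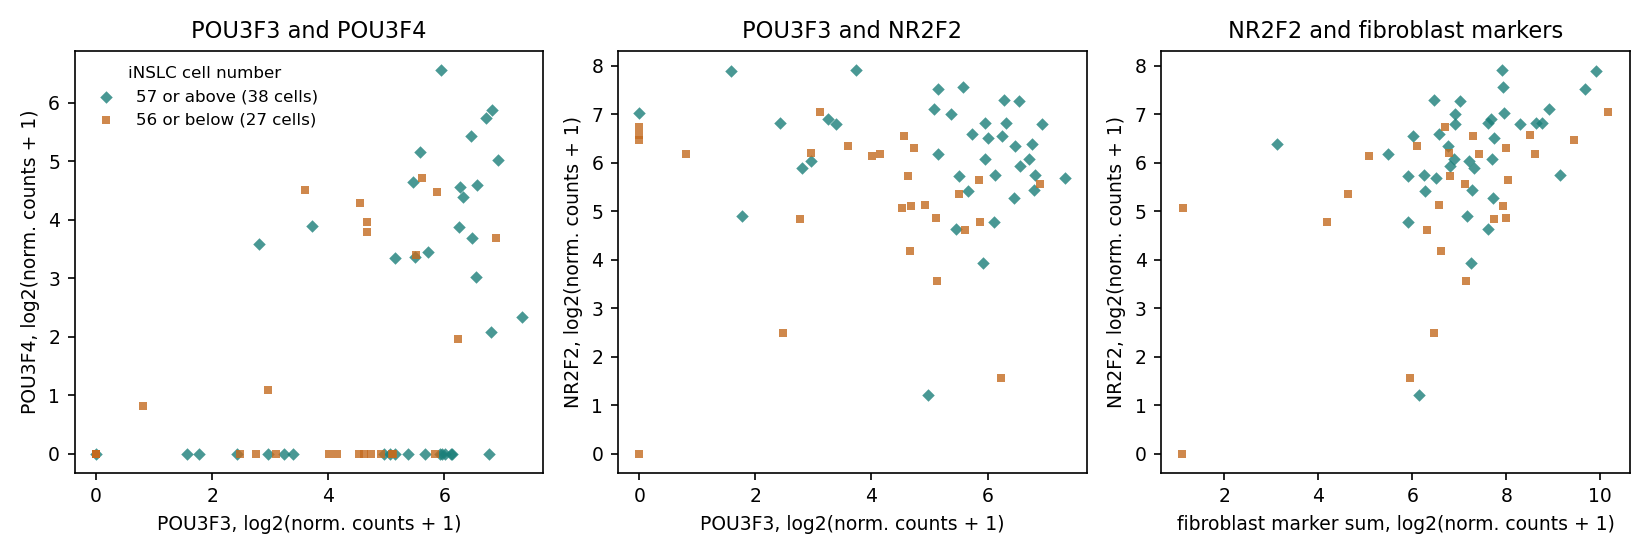
Each point is 1 of the 65 iNSLCs, with cells numbered 57 or above as green diamonds and 56 or below as orange squares, and axes are log2 of normalized counts after a pseudocount of 1. The panels show POU3F4 against POU3F3 (rho 0.50), NR2F2 against POU3F3 (-0.08 over all cells and -0.23 and -0.41 within the sets) and NR2F2 against the summed fibroblast markers (0.46). All 31 cells with a POU3F4 read have a POU3F3 read, which 60 of the 65 cells have.

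The genes most like each member were then taken from the 10509 ranked genes, as the 3 of highest rho with a gene name. For POU3F2 they were RGS16 (0.50), a regulator of G-protein signalling, PDE4D (0.47), a cAMP phosphodiesterase, and GPT2 (0.46), a mitochondrial alanine transaminase. For POU3F3 they were KCP (0.65), a secreted modulator of BMP signalling, FAM189A1 (0.60) and RNF217 (0.58). KCP had 0.66 in the cells numbered 57 or above and 0.56 in those numbered 56 or below, and RNF217 had 0.69 and 0.26. For POU3F4 they were NPAS3 (0.52), a bHLH-PAS factor of the developing brain, PAX3 (0.52), a factor of the dorsal neural tube and neural crest, and KLHL36 (0.52). PAX3 had 0.42 with POU3F4 in the cells numbered 57 or above and 0.66 in those numbered 56 or below.

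For NR2F1 the genes were PCSK1N (0.63), an inhibitor of a prohormone convertase, GAS1 (0.59), a co-receptor for Hedgehog ligands, and CRB2 (0.59), a polarity protein of neuroepithelium. PCSK1N differed between the sets, with 0.59 in the cells numbered 57 or above and 0.18 in those numbered 56 or below, and CRB2 had 0.33 and 0.66. For NR2F2 they were ZNF703 (0.62), a zinc-finger repressor, HOXA3 (0.56), a homeobox factor of the hindbrain and pharyngeal arches, and TRIM8 (0.55). HOXA3 averaged 11.0 in iNSLCs and 0 in PSC cells. For NR2F6 they were REX1BD (0.57), SIX5 (0.57), a homeobox factor, and NME3 (0.54), a nucleoside diphosphate kinase. NME3 had 0.53 in the cells numbered 57 or above and 0.27 in those numbered 56 or below. No gene was among the 3 for more than 1 member.

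Other genes of the POU and NR2 families were read from lists. All lists, here and in the next paragraphs, were chosen with earlier results of these data known. Their counts are therefore a description and are not compared with those of the members. Over all 16269 genes, 4.6% were at least 4-fold higher in iNSLCs and 10.2% lower. Of the other POU genes 8 of 11 had a row and 6 had a mean of at least 1 in a group, of which 1 was at least 4-fold higher in iNSLCs and 2 lower, with a median log2 ratio of -0.47. POU2F2 (OCT2) averaged 10.9 in iNSLCs and 0.884 in PSC cells. POU5F1, the pluripotency factor OCT4, averaged 7.74 in iNSLCs, where 24 had a read, and 91.6 in PSC cells, and reads from the vectors' human OCT4 cannot be told apart from it here. POU2F3 had no read in iNSLCs and a mean of 6.84 in PSC cells, all of it in 1 cell, and POU5F2 was at 1.59 and 1.37. Of the other NR2 genes 2 of 5 passed the minimum and 0 passed the fold limit. NR2C1 averaged 8.50 in iNSLCs and 7.76 in PSC cells, and NR2C2 14.5 and 40.2.

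Among genes whose products are known to work with POU3F factors, 9 of 10 passed the minimum. Of these, 4 were at least 4-fold higher in iNSLCs and 0 lower, beside 4.6% and 10.2% of all genes, and the median log2 ratio was 1.97. PAX3 averaged 95.2 in iNSLCs and 0 in PSC cells, and SOX1, a SOXB1 factor of neural progenitors, 19.6 and 0.0810. SOX10, the neural crest factor, averaged 0.389 in iNSLCs and 1.51 in PSC cells, and PQBP1, a partner of POU3F2, 2.28 and 8.68. The rho of PAX3 was 0.52 with POU3F4, 0.44 with POU3F3 and 0.27 with POU3F2, and it was above 0 in both sets of cells for each of them. SOX1 had a rho of 0.23 with POU3F2, 0.04 with POU3F3 and -0.03 with POU3F4. Named after their values were seen, SOX3 had 0.25, 0.30 and 0.29 with the same members, and SOX2 0.35, 0.39 and 0.27, where reads from the vectors' human SOX2 cannot be told apart from it. With POU3F3, SOX2 had 0.27 in the cells numbered 57 or above and 0.06 in those numbered 56 or below. SOX1 had -0.08 and 0.26 with POU3F3 in these sets. The median over the 21 pairs of a ranked partner and POU3F2, POU3F3 or POU3F4 was 0.25.

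Of the genes known as targets of POU3F factors, 5 of 6 with a row passed the minimum. Of these, 2 were at least 4-fold higher and 0 lower, beside 4.6% and 10.2% of all genes. FABP7, a lipid-binding protein of radial glia, averaged 18.5 in iNSLCs and 0.704 in PSC cells, and DLL1, a Notch ligand, 61.2 and 6.70. NES (nestin) averaged 261 and 136, with a log2 ratio of 0.94, and MITF, the melanocyte factor, 1.21 and 7.46. Over iNSLCs FABP7 had a rho of 0.01 with POU3F2, -0.14 with POU3F3 and -0.08 with POU3F4. Within the sets its rho with POU3F3 was above 0, at 0.10 in the cells numbered 57 or above and 0.08 in those numbered 56 or below. With POU3F4 the values in these sets were -0.09 and 0.07. DLL1 had 0.24 with POU3F2, with 0.48 in the cells numbered 57 or above and 0.02 in those numbered 56 or below.

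Of 9 partners of NR2F factors that passed the minimum, 0 were at least 4-fold higher in iNSLCs and 2 were lower, beside 4.6% and 10.2% of all genes. Their median log2 ratio was -0.13. BCL11B, a zinc-finger repressor that binds NR2F proteins, had no read in any iNSLC and a mean of 58.6 in PSC cells, and BCL11A averaged 0.0314 and 4.79. ZFPM2 (FOG2), a co-repressor, averaged 3.85 in iNSLCs and 0.427 in PSC cells, and RXRB, a heterodimer partner, 3.80 and 2.74. Of the known NR2F targets 3 of 8 passed the minimum and 2 were at least 4-fold higher, beside 4.6% of all genes. The 2 were PAX6, at 22.8 in iNSLCs and 0 in PSC cells, and NRP2, a semaphorin co-receptor, at 12.6 and 0.941. NOTCH1 averaged 353 in iNSLCs and 281 in PSC cells. Its rho was 0.54 with NR2F6, which had 0.53 in the cells numbered 57 or above and 0.39 in those numbered 56 or below, and 0.52 with NR2F1, which had 0.57 and -0.13. PAX6 had a rho of -0.09 with NR2F2 and 0.13 with NR2F1. In the cells numbered 57 or above these were 0.08 and 0.01, and in those numbered 56 or below -0.41 and 0.23.

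**Figure D5:**
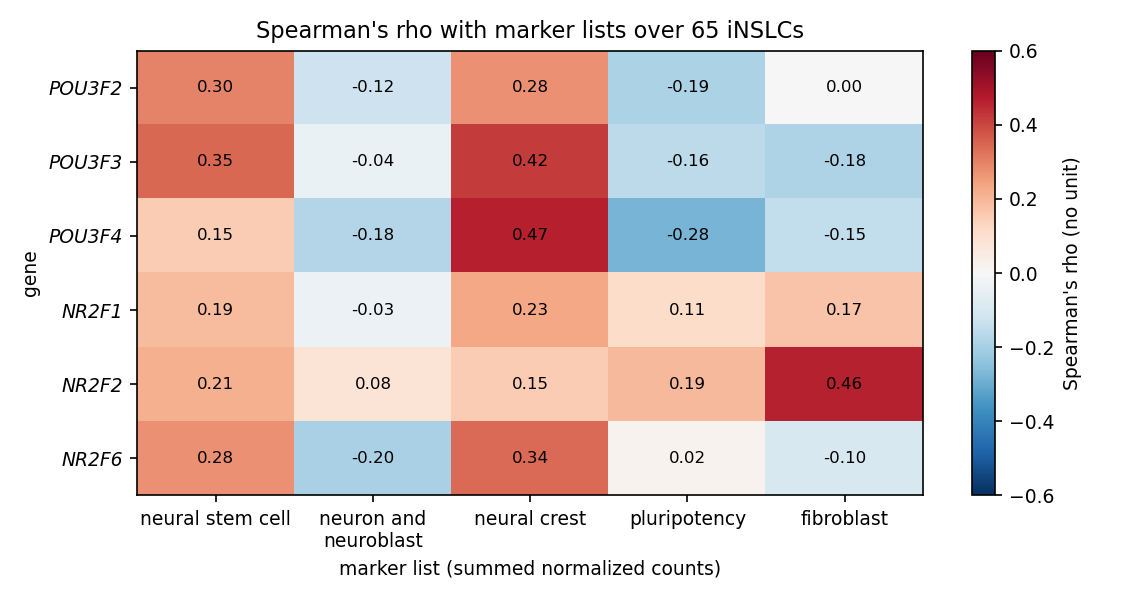
Spearman's rho over the 65 iNSLCs (colour and printed value, no unit) between each of 6 members (rows) and the summed normalized counts of 5 marker lists (columns). By sum, the highest values are POU3F4 with neural crest markers (0.47) and NR2F2 with fibroblast markers (0.46), and neuron and neuroblast markers lie between -0.20 and 0.08.

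Markers of other cell types moved with some members. The summed neural crest markers ranged from 4.85 to 522 in iNSLCs, 0 to 183 in PSC cells and were 113 in the fibroblast, and had a rho of 0.47 with POU3F4 and 0.42 with POU3F3. PAX3 has the largest mean of the list in iNSLCs, and without it the values were 0.14 and 0.18. PAX3 was found in 62 iNSLCs and PAX7 in 53, while the crest-defining SOX10 was found in 5, TFAP2A in 7 and FOXD3 in 0 of 65. Of the 11 crest markers 5 were found in at least 50% of iNSLCs, beside 10509 of the 23561 named genes, so nothing is read from this count. The summed neural stem cell markers had a median of 3232 in iNSLCs, and were 7272 in the fibroblast. VIM has the largest mean of that list in iNSLCs, 2771, and was at 7161 in the fibroblast, so the sum mostly follows VIM. No value without VIM is given. The sum had a rho of 0.35 with POU3F3, 0.30 with POU3F2 and 0.28 with NR2F6. In the cells numbered 57 or above these were 0.30, 0.34 and 0.27, and in those numbered 56 or below 0.04, 0.24 and -0.06. The summed neuron and neuroblast markers had -0.20 with NR2F6, -0.18 with POU3F4 and -0.12 with POU3F2, with -0.31, -0.33 and -0.31 in the cells numbered 57 or above and -0.16, 0.05 and 0.09 in those numbered 56 or below. A sum is led by the abundant genes of its list. With the mean of log2 values in its place, the crest markers had a rho of 0.32 with POU3F4 and 0.48 with NR2F6, the stem cell markers 0.42 with POU3F3 and 0.40 with NR2F1 (0.19 by sum), and the fibroblast markers 0.54 with NR2F2.

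Of the 6 members with correlations, NR2F2 had the highest rho with the fibroblast markers. Their sum ranged from 1.15 to 1153 with a median of 140 in iNSLCs, and was 94.5 to 549 in PSC cells and 31624 in the fibroblast. The rho with NR2F2 was 0.46, with 0.45 in the cells numbered 57 or above and 0.53 in those numbered 56 or below, and it was 0.45 without COL1A2, the gene with the largest mean in the list. NR2F2 had a rho of 0.39 with COL1A2, 0.36 with THY1 and 0.31 with FBN1. With PDGFRA, COL5A1, PDGFRB and COL1A1 it had 0.11 to 0.28, and its 95th percentile over all ranked genes was 0.32. Its values with the neural stem cell markers were -0.30 (FABP7) to 0.45 (SOX2), where reads from the vectors' human SOX2 cannot be told apart. With the crest markers that have a value they were 0.05 (PAX3) to 0.43 (MSX2). NR2F2 was thus not tied to the fibroblast markers alone. Of the 14 fibroblast markers 4 were found in at least 50% of iNSLCs, beside 10509 of the 23561 named genes. DCN, LUM, TWIST2 and S100A4 were found in 1 cell each, COL3A1 in 7 and POSTN in 0. The fibroblast itself had 9.31 of NR2F2, below 61 of 65 iNSLCs. The part of fibroblast RNA in the level of NR2F2 was not tested. The other members had values of -0.18 to 0.17 with this sum.

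The loci next to the members were looked up in the RefSeq annotation of calJac240_pri, which matched 7 of 7 members by name. The build of the deposited table is not given in the sources used here, so no coordinates are given and the annotation was used only for which genes neighbour each other. LOC103793609, which overlaps NR2F2, was found in 48 of 65 iNSLCs with a mean of 5.60 and in 0 of 5 PSC cells and not in the fibroblast, and its rho with NR2F2 was 0.27. Whether reads were counted by strand is not stated, so reads of NR2F2 and LOC103793609 cannot be told apart where they overlap. The same limit holds for POU3F1 and POU3F3, which are overlapped by 1 and 2 loci without a row. OCEL1, next to NR2F6, had a rho of 0.32 with it, 0.53 in the cells numbered 57 or above and -0.23 in those numbered 56 or below. The other neighbours with a row had values of -0.11 to 0.18, among them UTP11 beside POU3F1, FBXL4 beside POU3F2, SH3BGRL and RPS6KA6 beside POU3F4 and POU5F2 beside NR2F1. The POU3F genes share a conserved POU domain, as the NR2F genes share their DNA-binding domain, and how reads that match more than one of them were counted is not stated, so small values of a member beside a high relative, as for POU3F1, are uncertain.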

How the data were processed

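Per the labels, single marmoset cells were sorted into plates and libraries were made with a RamDA-seq kit. The authors deposited a signal table of normalized counts, with 1 factor per cell, in which all non-zero values were within 0.02 of a whole number of reads. Seurat 3.0.0, featureCounts 1.5.1, STAR 2.6.0c and Trimmomatic appear without their roles in the processing notes of the submitters, and the build is not given in the sources used here. A row with no gene name (at most 0.449% of a cell) was left out. Normalization by 1 factor leaves detection dependent on depth, so a value of 0 means that no read was found.

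Ratios are log2 of group means after a pseudocount of 1, for genes whose mean reached 1 in either group, with 4-fold as the limit. For a group without a read, folds were computed against 3 reads in the whole group. Exact intervals (Clopper-Pearson for shares above 0, Poisson for reads, 95%) cover counting error only. No test was made, since each group was taken as 1 culture. The members and lists (112 genes, 101 with a row) were chosen with earlier results of these data known. The genes named are the members, the 3 most alike of each, up to 4 per list by ratio, the neighbours, and, chosen after their values were seen, some markers beside POU3F4 and NR2F2 and the genes under other observations. Doublets were not called. Alternatives were a pseudocount of 10, other filters, scaling, medians, thinning, other limits and leaving out cells. Computations used Python 3.11.15 with pandas 2.3.3, numpy 2.4.6 and scipy 1.17.1, and matplotlib 3.10.9, and were tested on simulated data.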

Additional observations from a re-analysis of the deposited data

Results flagged for a closer look

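ESC 11 had 7126 detected genes, far below the other 3 ESCs (15122 to 15521), which put it past Dixon's limit for a group of 4. It was 1 of 8 measures that varied within a group of 4 to 10 cells, of 15 examined, and chance alone gives such a gap in about 1 in 20 groups. ESC 11 also had the lowest NR2F6 value of the PSC cells, 15.3 normalized counts. The other 6 members had no read in ESC 11, as in the other ESCs.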

How the results depend on the processing

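The count of members at least 4-fold higher in iNSLCs than in PSC cells was 5, and it was 4 with medians over cells, a pseudocount of 10 or a minimum mean of 10 (POU3F4 was then not past the limit or not in the table) and 5 under the other alternatives. The share of all genes past that limit was 4.6%, but 0.774% with a pseudocount of 10 and 1.68% with an 8-fold limit. Leaving out each PSC cell in turn gave 5 members each time and a share of 4.16% to 5.75%. Members at least 2-fold higher in the cells numbered 57 or above were 2, and 0 after thinning to 100000 reads, where the pseudocount was added to thinned reads. Members with a higher mean in the cells numbered 57 or above were 7, and 6 after thinning. The thinned comparison was added after seeing the data, and the share of all genes is not given for it. The median number of members per iNSLC was 6, and it was 5 when a value of at least 10 was required and 5 in the iNSLCs numbered 56 or below. The median rho over pairs was 0.22 to 0.29 under its alternatives. Over single members, 71 of 77 alternative log2 ratios, 36 of 42 shares of cells and 80 of 90 pair rho values moved by less than the spread used as a yardstick, and no log2 ratio past the limit changed sign. Among the pairs, NR2F1 with NR2F6 (0.34), NR2F2 with NR2F6 (0.14) and POU3F2 with NR2F2 (0.05) had -0.03, -0.26 and -0.26 in the cells numbered 56 or below. Scaling every cell to the median total moved the median log2 ratio of all genes by 0.29. The most alike genes were less stable, since of the 18 named ones 6 remained with Pearson's r, 9 after thinning, 3 in the cells numbered 57 or above and 3 in those numbered 56 or below. Leaving PAX3 out of the crest list (0.14 for POU3F4 and 0.18 for POU3F3) and COL1A2 out of the fibroblast list (0.45 for NR2F2) was chosen after seeing the data. No paired analysis was possible because the cell numbers name single cells and are not shared between groups.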

Other observations

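Some of the genes with the lowest rho with a member were chosen after their values were seen. PRTG (protogenin), a receptor of the early neural tube and mesoderm, had a rho of -0.57 with POU3F3 (-0.56 in the cells numbered 57 or above and -0.32 in those numbered 56 or below) and of -0.50 with POU3F2 (-0.51 and -0.58). PRTG averaged 337 normalized counts in iNSLCs and 7.13 in PSC cells. COL2A1, a fibrillar collagen, had a rho of -0.54 with POU3F3, with -0.70 in the cells numbered 57 or above and -0.41 in those numbered 56 or below, and averaged 89.8 in iNSLCs and 1.94 in PSC cells.

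POU3F4 varied against ASS1 (-0.47), an enzyme of arginine synthesis that averaged 31.6 in iNSLCs and 105 in PSC cells, and against LIN28A (-0.41, with -0.37 in the cells numbered 57 or above and -0.58 in those numbered 56 or below), an RNA-binding protein of early progenitors that averaged 67.6 and 204. The EP-A vectors carry human LIN28, and reads from it cannot be told apart from LIN28A here. BRCA2, a DNA repair factor, had a rho of -0.52 with POU3F2 and averaged 6.58 in iNSLCs and 41.8 in PSC cells. These values are the extremes among 10509 ranked genes.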
